A study of Homo sapiens with 12 samples.

Results

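The 9 genes described here set how a cell starts and restrains blood clotting and how it turns plasminogen into plasmin. They are the plasminogen activators PLAU and PLAT, the receptor PLAUR, and the serpin inhibitors SERPINE2 and SERPINB2. The others are the clotting initiator F3, the anticoagulants THBD and TFPI, and TFPI2, a Kunitz inhibitor related to TFPI. All were taken by gene symbol, 9 of the 28901 named genes in the expression table, and all 9 were measured well above the filter on low counts. RNA-seq libraries were made from the hTERT-immortalized human adipose stromal cell line ASC52telo, carried through differentiation to adipocytes at day 14. Cells had received a lentiviral pLVX-shRNA2 vector with ZsGreen that carried either a scramble shRNA or a shRNA against the long intergenic noncoding RNA linc-ADAIN (linc-ADAIN KD), and ZsGreen-positive cells had been sorted before differentiation. The 4 groups of 3 libraries were the scramble control, scramble control with lipopolysaccharide (LPS, 100 ng/mL for 4 h), linc-ADAIN KD, and linc-ADAIN KD with LPS. All groups shared the line's genotype, given as WT, a differentiation medium with insulin, dexamethasone, isobutylmethylxanthine, rosiglitazone, pantothenate and biotin, and a maintenance medium that still held insulin and dexamethasone.

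Each arm of the design was 1 shRNA in 1 line, so the effect of losing linc-ADAIN cannot be told apart from that of the particular hairpin or of the transduced and sorted population that carried it. The RNA-seq was 1 experiment in triplicate, and nothing says that the 3 libraries of a group came from separate cultures. Each SD and p-value with n = 3 therefore measures the spread between libraries of that experiment, which may be technical. The linc-ADAIN transcript itself was not analysed here.

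Plasmin is the protease that dissolves fibrin and also digests extracellular matrix. It is cut from its zymogen plasminogen by urokinase, the product of PLAU, or by tissue-type plasminogen activator, the product of PLAT. PLAUR encodes the receptor that holds urokinase at the cell surface. The serpins plasminogen activator inhibitor 2 (SERPINB2) and protease nexin 1 (SERPINE2) block these activators, and protease nexin 1 also inhibits thrombin. Clotting is started by tissue factor (F3), which binds factor VIIa. TFPI inhibits the tissue factor complex and factor Xa, TFPI2 is a related Kunitz inhibitor that acts mainly on plasmin and other matrix-associated proteases, and thrombomodulin (THBD) turns thrombin into an activator of protein C. Inflammatory stimuli are known to lower thrombomodulin in endothelium.

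RefSeq promoter windows, which run from 250 bases before the annotated start to 50 bases after it on GRCh38, were found for 7 of the 9 members, as 9 windows. The letters TGANTCA, a loose form of the core of an AP-1 site, were searched on both strands. The strict core has C or G at N. Of the 7 members, 4 held the loose letters, in 4 of the 9 windows. Those 4 are printed because they carry the letters. Of all 35116 RefSeq promoter windows of the same length, 7.71% held the letters. In each sequence, written 5′ to 3′ on the gene's strand, the capitals mark these matches. SERPINB2 was read from chr18:63887455-63887754 on the plus strand, PLAUR from chr19:43670120-43670419, F3 from chr1:94541710-94542009 and TFPI2 from chr7:93890704-93891003, the last 3 on the minus strand.
SERPINB2: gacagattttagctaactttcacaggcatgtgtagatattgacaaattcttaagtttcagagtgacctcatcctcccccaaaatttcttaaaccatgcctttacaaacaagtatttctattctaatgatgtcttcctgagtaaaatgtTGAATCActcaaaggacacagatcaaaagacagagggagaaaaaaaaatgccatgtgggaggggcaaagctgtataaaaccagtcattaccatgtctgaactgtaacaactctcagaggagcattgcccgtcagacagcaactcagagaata
PLAUR: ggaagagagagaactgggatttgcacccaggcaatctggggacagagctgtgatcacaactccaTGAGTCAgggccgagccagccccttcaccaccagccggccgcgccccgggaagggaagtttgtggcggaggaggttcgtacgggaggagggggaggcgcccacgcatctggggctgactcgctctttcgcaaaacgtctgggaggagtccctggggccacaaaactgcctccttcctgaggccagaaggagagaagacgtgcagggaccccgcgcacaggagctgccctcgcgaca
F3: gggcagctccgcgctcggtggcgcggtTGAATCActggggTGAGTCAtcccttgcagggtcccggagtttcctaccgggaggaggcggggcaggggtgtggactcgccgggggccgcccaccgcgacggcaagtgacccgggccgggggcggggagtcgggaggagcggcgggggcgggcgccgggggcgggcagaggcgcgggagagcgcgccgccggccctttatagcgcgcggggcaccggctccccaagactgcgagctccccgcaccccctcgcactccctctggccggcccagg
TFPI2: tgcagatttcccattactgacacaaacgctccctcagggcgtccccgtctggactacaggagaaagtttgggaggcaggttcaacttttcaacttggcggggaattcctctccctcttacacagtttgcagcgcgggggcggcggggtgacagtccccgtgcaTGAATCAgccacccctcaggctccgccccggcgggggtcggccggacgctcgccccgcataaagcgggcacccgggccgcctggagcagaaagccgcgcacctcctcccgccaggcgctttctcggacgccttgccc
Counted from the start site, the match began at base -102 in SERPINB2, -186 in PLAUR and -87 in TFPI2. The F3 window held a pair of matches, at -223 and -210. The letters were TGAATCA in SERPINB2 and TFPI2 and TGAGTCA in PLAUR, and F3 held both forms. The full cyclic AMP response element TGACGTCA was in none of the 9 windows, against 1.85% of all windows. A loose NF-kB motif was found for every member with a window except SERPINB2. It was in 58.7% of all windows and so separates few genes. A match is a run of letters and was not tested as a binding site.

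Library totals ranged from 28381782 to 53837400 estimated counts, and the Pearson correlation between libraries of a group, over log2 levels of all genes, from 0.976 to 0.989. Levels are given as CPM, counts brought to a common library size after scaling by trimmed mean of M values. Adipocyte markers were present in every group, with 6 of 9 at or above 1 CPM, although CIDEA, LEP and LPL were below 1 CPM in all groups. Their summed level was lower in KD: it was 3127 to 4339 CPM in scramble control, 3636 to 4195 with LPS, 624 to 1816 in KD and 503 to 1175 in KD with LPS. The sum of 8 stromal markers, of which DLK1 was at 0 throughout, was 5016 to 6024, 4757 to 5370, 6327 to 7200 and 7368 to 8200 CPM in the same order. Its members moved both ways: without LPS, DCN was higher in KD (4904 against 2671 CPM, log2 0.88), while THY1 (148 against 764 CPM, log2 -2.37), ENG (111 against 285 CPM, log2 -1.36) and PDGFRB (523 against 977 CPM, log2 -0.90) were lower. Endothelial markers, relevant to THBD and TFPI, summed to 23.8 to 27.2 CPM in scramble control, 15.5 to 17.0 with LPS, 11.9 to 12.3 in KD and 8.48 to 13.5 in KD with LPS. TEK and VWF were called lower in KD with and without LPS, and PECAM1 with LPS only (log2 -0.72, edgeR adjusted p = 0.046). KDR went the other way with LPS, at 3.12 CPM in KD against 0.107 in scramble control (log2 4.89, edgeR adjusted p = 3.4e-05). Without LPS it was not called (edgeR adjusted p = 0.16). The defining marker CDH5 was at a mean of at most 0.0453 CPM in any group. Macrophage markers, relevant to PLAUR, SERPINB2 and F3, summed to 58.2 to 72.2 CPM in the scramble groups and 81.1 to 119 CPM in the KD groups. In that list CD163 was at 68.6 CPM in KD against 4.33 CPM in scramble control, and CD68 went the other way, at 31.1 against 53.6 CPM (log2 -0.78). With LPS, CD14 was at 2.25 CPM in KD against 0.348 in scramble control (log2 2.69, edgeR adjusted p = 0.0014). PTPRC, CSF1R, ITGAM and LYZ were below 1 CPM in every group. Mesothelial markers summed to at most 3.23 CPM, with MSLN and KRT19 at 0. The part of these differences in the KD results was not tested. In bulk RNA, fewer cells of a type and less RNA per cell cannot be told apart, which bears on every KD value given for the 9 genes.

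Per kilobase of transcript, TFPI2 was the most abundant member and PLAT the least in scramble control. TFPI2 was at 404 ± 92.7 CPM per kb (SD, n = 3), SERPINE2 at 263 ± 78.9, F3 at 151 (130 to 170), SERPINB2 at 96.2 ± 22.3, THBD at 74.6 ± 8.05, PLAU at 50.4 ± 6.03, PLAUR at 47.1 ± 3.59, TFPI at 37.2 ± 1.41 and PLAT at 3.99 ± 0.544. Among neighbours in that order, TFPI2 and SERPINE2, SERPINB2 and THBD, and PLAU and PLAUR had overlapping libraries. In KD with LPS the order was TFPI2 at 1087 ± 99.1 CPM per kb, SERPINE2 at 527 ± 36.2, SERPINB2 at 301 ± 53.2, F3 at 90.9 ± 5.71, PLAUR at 30.9 ± 3.58, TFPI at 23.0 ± 2.74, PLAT at 17.9 ± 3.21, PLAU at 6.84 ± 1.48 and THBD at 3.72 ± 1.15. No neighbours overlapped there, and PLAT had passed PLAU and THBD. Apart from TFPI2, SERPINE2 and PLAT, the places in scramble control depended on which transcript of a gene gave the length: with the median length of the coding transcripts, TFPI was 4th and F3 5th in scramble control, and SERPINB2 was 2nd in KD with LPS.

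Without LPS, linc-ADAIN KD adipocytes differed from scramble control in 8 of the 9 genes at an adjusted p under 0.05. PLAT, PLAUR, SERPINB2 and TFPI2 were higher, PLAU, THBD, F3 and TFPI were lower, and SERPINE2 did not pass the test. Over all 16217 genes tested, 27.2% passed, 12.1% higher and 15.1% lower. PLAU and THBD also differed at least 2-fold, as did 7.77% of all genes. KD and control libraries were fully separate for 8 members and for 42.5% of all genes. The median absolute log2 difference was 0.68 over the members and 0.36 over all genes. The 9 members were chosen with earlier results of these data known. They were measured well above the filter on low counts, while all genes included low-count ones. With a stricter filter, 4520 of 13777 genes passed, against 4411 of 16217. Here and wherever members are set beside all genes below, the all-gene values describe a background and do not test an excess.

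With LPS in both arms, 8 of 9 members again differed between KD and scramble control, 5 higher and 3 lower. SERPINE2 joined the higher genes and F3 did not pass the test. Of 15981 genes tested 26.9% passed, 12.7% higher and 14.2% lower. PLAU, THBD, PLAT, SERPINB2 and TFPI2 differed at least 2-fold, as did 8.48% of all genes, and libraries were fully separate for 8 members and for 40.6% of all genes. The members' median absolute log2 difference was 1.33, against 0.36 over all genes.

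LPS by itself changed 6 members in scramble control, where PLAU, PLAUR, SERPINB2, THBD and F3 fell and PLAT rose. Of 15920 genes tested 14.3% passed, 5.9% higher and 8.38% lower. In KD adipocytes LPS changed 8 members, 4 higher (PLAT, SERPINE2, SERPINB2 and TFPI2) and 4 lower (PLAU, PLAUR, THBD and F3). Of 16169 genes tested 11.3% passed, 5.32% higher and 6.03% lower. At least 2-fold were THBD, PLAUR and PLAU in scramble control, against 2.68% of all genes, and THBD, PLAUR and PLAT in KD, against 2.25%. Libraries were fully separate for 6 members and 32.1% of all genes in scramble control, and for 8 members and 27.3% of all genes in KD. These comparisons share libraries with the KD comparisons, so the counts are not independent of each other.

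**Figure D1:**
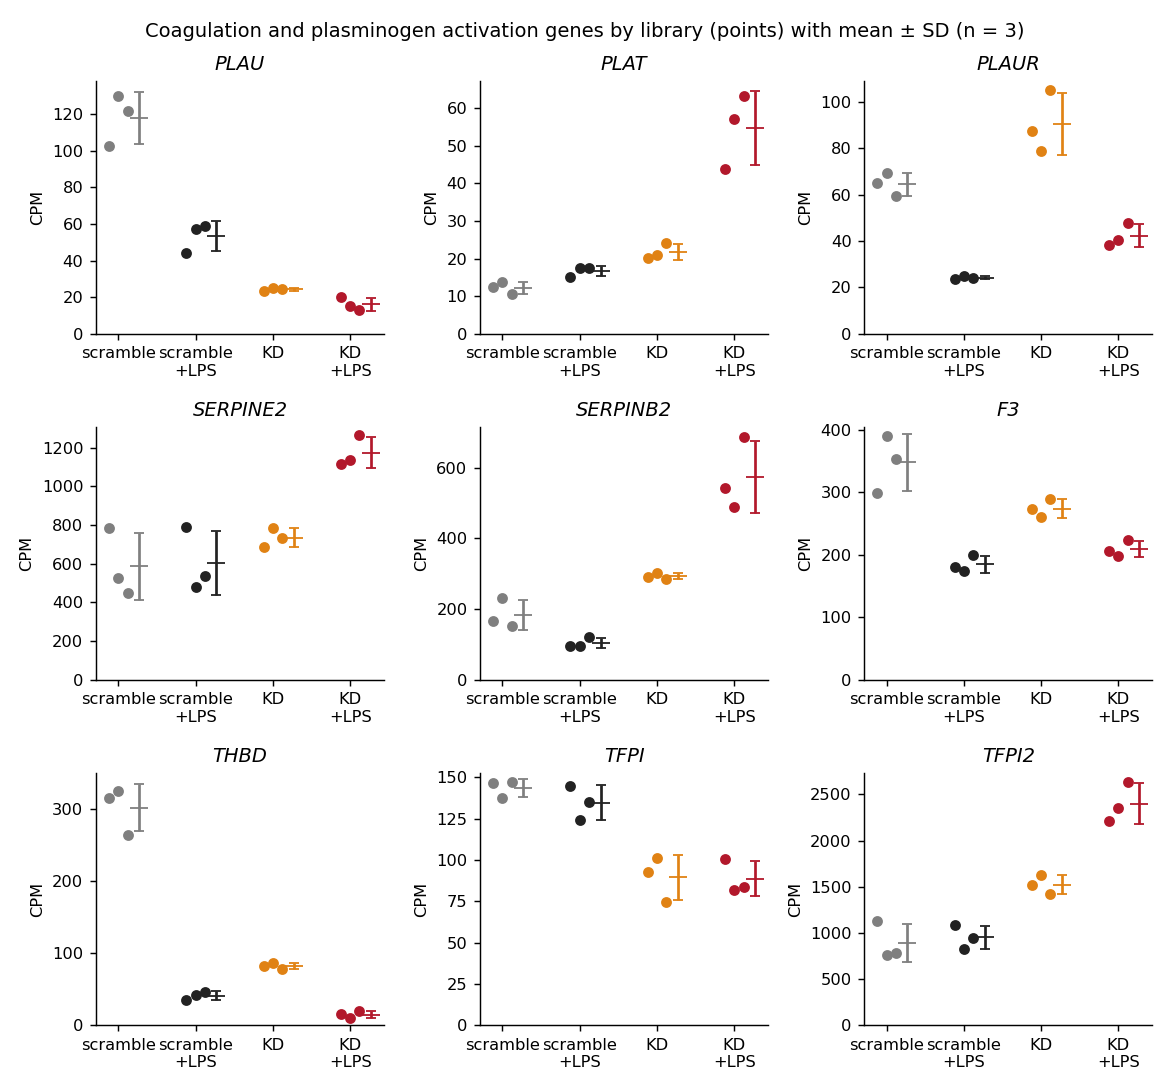
Levels of the 9 genes in CPM (linear axes from 0) in each library, 1 panel per gene. Points are the 3 libraries of each group and the bar beside them is the mean ± SD. PLAU and THBD are highest in scramble control, while PLAT, SERPINB2, SERPINE2 and TFPI2 are highest in KD with LPS.

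**Figure D2:**
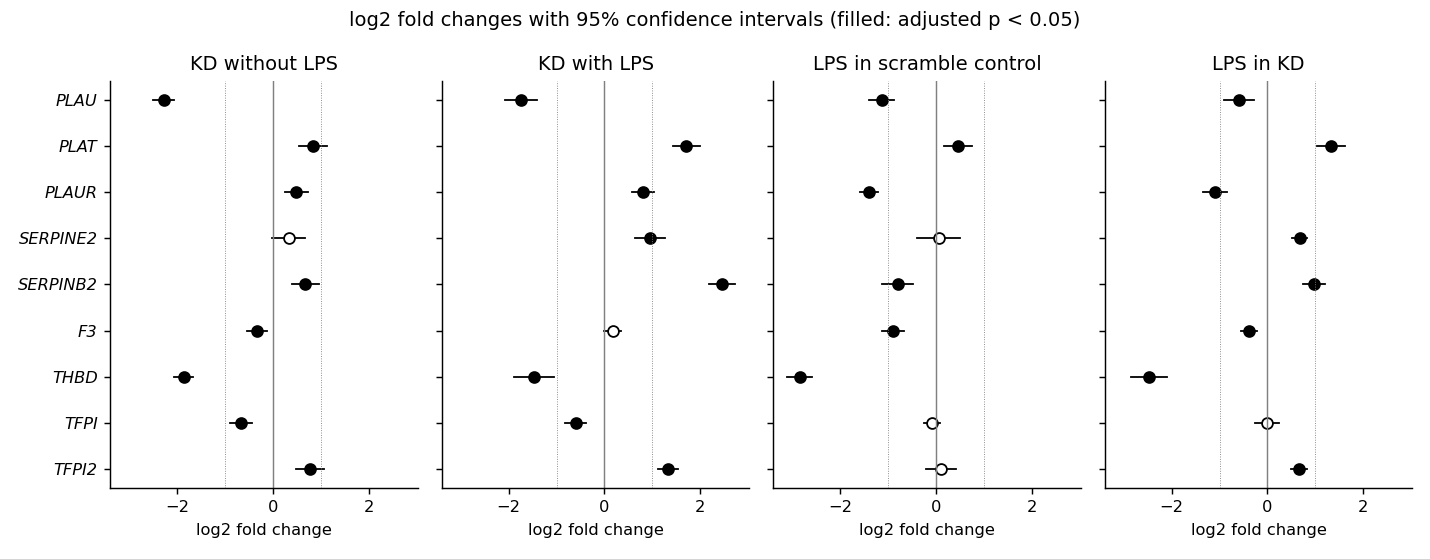
The log2 fold changes of the 9 genes (x axis) in the 4 comparisons, with 95% confidence intervals. Filled points passed an adjusted p of 0.05 and dotted lines mark a 2-fold change. PLAU and THBD lie to the left of 0 in all 4 panels and PLAT to the right.

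PLAU, the urokinase gene, carried the largest KD difference of the 9 without LPS. Its mRNA stood at 103, 130 and 122 CPM in the scramble control libraries, 44.2, 57.0 and 59.1 with LPS, 23.2, 25.1 and 24.5 in KD, and 19.9, 15.0 and 13.2 in KD with LPS. Every group was separate from the others, in the order scramble control, scramble control with LPS, KD, and KD with LPS. The KD level was 20.6% of control without LPS (log2 fold change -2.28, SE 0.0997, edgeR adjusted p = 6.4e-08), the 12th smallest p of all genes. With LPS it was 30.0% of control (log2 fold change -1.74, SE 0.155, edgeR adjusted p = 1.9e-06). LPS lowered PLAU 2.19-fold in scramble control (edgeR adjusted p = 7.1e-05) and 1.51-fold in KD (edgeR adjusted p = 0.016). The call in KD was lost without KD replicate 2 (adjusted p = 0.052), KD with LPS replicate 2 (0.073) or KD with LPS replicate 3 (0.081). The gene lies at chr10:73909177-73917496 (GRCh38, GENCODE release 44, plus strand) and overlaps the antisense gene C10orf55, which had at most 39 counts in any library.

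PLAT, the gene of tissue-type plasminogen activator, moved the opposite way. In scramble control its libraries read 12.5, 13.8 and 10.5 CPM, and with LPS 15.1, 17.4 and 17.5. KD adipocytes had 20.2, 21.1 and 24.2 CPM, and KD with LPS 43.9, 57.0 and 63.1. The groups did not overlap, and the last stood well above the other 3. PLAT was higher in KD than in control, 1.79-fold without LPS (log2 0.84, SE 0.131, edgeR adjusted p = 0.00052) and 3.28-fold with LPS (log2 1.71, SE 0.135, edgeR adjusted p = 5.2e-07). The rise with LPS was 2.51-fold in KD (log2 1.33, SE 0.133, edgeR adjusted p = 9.5e-06) and 1.37-fold in scramble control (log2 0.46, SE 0.131, edgeR adjusted p = 0.037). The smaller rise lost its call without scramble control replicate 1 (adjusted p = 0.083) or 3 (0.11), or scramble control with LPS replicate 2 (0.085) or 3 (0.13).

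PLAUR, which encodes the urokinase receptor, was lower after LPS and higher in KD than in control. The libraries read 64.9, 69.1 and 59.3 CPM in scramble control, 23.4, 24.9 and 24.2 with LPS, 87.3, 78.9 and 105 in KD, and 38.4, 40.5 and 47.7 in KD with LPS. All 4 groups were separate. The KD difference was 1.41-fold without LPS (log2 0.49, SE 0.106, edgeR adjusted p = 0.0046) and 1.74-fold with LPS (log2 0.80, SE 0.109, edgeR adjusted p = 8.7e-05). LPS lowered it 2.64-fold in scramble control (edgeR adjusted p = 1.3e-06) and 2.14-fold in KD (edgeR adjusted p = 1.6e-05). The ligand PLAU and its receptor therefore differed in opposite directions between KD and control. The gene is at chr19:43646095-43670547 on the minus strand.

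SERPINB2, the gene of plasminogen activator inhibitor 2, changed direction with LPS between the shRNAs. Its levels were 167, 232 and 151 CPM in scramble control and 95.7, 95.9 and 121 after LPS. In KD they were 291, 301 and 285 CPM, and after LPS 544, 490 and 686. LPS thus lowered it 1.74-fold in control (log2 -0.80, SE 0.146, edgeR adjusted p = 0.0033) and raised it 1.96-fold in KD (log2 0.97, SE 0.103, edgeR adjusted p = 1.5e-05), with no overlap between groups in either case. KD against control was 1.60-fold higher without LPS (log2 0.68, SE 0.129, edgeR adjusted p = 0.0020) and 5.49-fold higher with it (log2 2.46, SE 0.129, edgeR adjusted p = 1.1e-08). The gene is at chr18:63871692-63903888 on the plus strand and overlaps the same-strand gene ENSG00000289724, which has no row in the table, so reads that both could give cannot be told apart.

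SERPINE2, the protease nexin 1 gene, was higher in KD after LPS. Control libraries read 783, 524 and 449 CPM and, with LPS, 792, 477 and 538. KD libraries read 684, 785 and 732 CPM and, with LPS, 1116, 1137 and 1265. In both scramble groups replicate 1 stood apart above the others. With LPS the KD level was 1.94-fold that of control (log2 0.96, SE 0.145, edgeR adjusted p = 0.00022). Without LPS the log2 difference was 0.33 (SE 0.160, 95% interval -0.018 to 0.68, edgeR adjusted p = 0.15) and the groups overlapped, whereas without scramble control replicate 1 it was 0.60 (adjusted p = 0.00086). LPS raised SERPINE2 1.60-fold in KD (edgeR adjusted p = 1.7e-05). In control the LPS difference was 0.055 on the log2 scale (95% interval -0.40 to 0.51, edgeR adjusted p = 0.91). The gene is at chr2:223975045-224039318 on the minus strand.

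F3, which encodes tissue factor, was lowered by LPS in both arms. It was at 299, 391 and 353 CPM in scramble control, 180, 174 and 200 with LPS, 273, 260 and 289 in KD, and 206, 197 and 223 in KD with LPS. The fall was 1.86-fold in control (log2 -0.90, SE 0.101, edgeR adjusted p = 0.00011) and 1.31-fold in KD (log2 -0.39, SE 0.0764, edgeR adjusted p = 0.0032). After LPS the shRNA groups overlapped, with a log2 difference of 0.17 (95% interval -0.0032 to 0.35, edgeR adjusted p = 0.14), and this passed the test when only library size was used for scaling (0.26, adjusted p = 0.028). Without LPS the KD level was 79.0% of control (log2 -0.34, SE 0.0966, edgeR adjusted p = 0.021). That call was lost with library size alone (adjusted p = 0.093) and in 4 of 6 fits with 1 library left out, those without scramble control replicate 2 (0.11) or 3 (0.052) or KD replicate 1 (0.054) or 2 (0.068). The gene is at chr1:94529173-94541759 on the minus strand.

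THBD, the thrombomodulin gene, had the widest range of the 9, with group means 4.37 apart on the log2 CPM scale. Scramble control libraries read 315, 325 and 264 CPM, and those with LPS 35.3, 42.4 and 46.6. KD libraries read 82.9, 86.5 and 78.5 CPM, and those with LPS 15.7, 10.05 and 19.3. All 4 groups were separate, and KD without LPS lay between the scramble groups. LPS lowered THBD 7.21-fold in control (log2 -2.85, SE 0.117, edgeR adjusted p = 9.1e-08), the 18th largest fall among the 1334 genes that fell, and 5.54-fold in KD (log2 -2.47, SE 0.176, edgeR adjusted p = 2.4e-07), the 11th of 975. The KD level was 27.5% of control without LPS (log2 -1.86, SE 0.0917, edgeR adjusted p = 9.8e-08) and 36.0% with LPS (log2 -1.47, SE 0.193, edgeR adjusted p = 6.3e-05). The single-exon gene lies at chr20:23045633-23049672 on the minus strand.

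TFPI, the inhibitor of the tissue factor complex, was lower in KD whether or not LPS was given. It was at 147, 137 and 147 CPM in scramble control, 145, 124 and 135 with LPS, 92.9, 101 and 74.6 in KD, and 101, 81.8 and 83.5 in KD with LPS. KD was at 62.5% of control without LPS (log2 -0.68, SE 0.105, edgeR adjusted p = 0.00048) and at 65.8% with LPS (log2 -0.60, SE 0.0982, edgeR adjusted p = 0.00040). No LPS difference passed the test: on the log2 scale the 95% interval was -0.25 to 0.094 in control (edgeR adjusted p = 0.58) and -0.26 to 0.23 in KD (edgeR adjusted p = 0.97). The groups compared overlapped in both cases. The gene is at chr2:187464230-187565760 on the minus strand, with the antisense gene CALCRL-AS1, which has no row in the table, overlapping it.

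TFPI2, the related Kunitz inhibitor, was higher in KD and differed from TFPI in direction. It read 1127, 764 and 783 CPM in scramble control, 1085, 831 and 947 with LPS, 1518, 1629 and 1420 in KD, and 2209, 2352 and 2639 in KD with LPS. As for SERPINE2, replicate 1 was the highest of both scramble groups. KD was 1.71-fold higher without LPS (log2 0.78, SE 0.130, edgeR adjusted p = 0.00085) and 2.51-fold higher with LPS (log2 1.33, SE 0.0979, edgeR adjusted p = 2.7e-07). LPS raised it 1.58-fold in KD (log2 0.66, SE 0.0739, edgeR adjusted p = 2.8e-05). In control the log2 difference was 0.11 (95% interval -0.21 to 0.43, edgeR adjusted p = 0.69) and the groups overlapped. TFPI2 is at chr7:93885396-93890753 on the minus strand and overlaps the antisense gene GNGT1, which had at most 6 counts in any library.

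Whether the KD difference itself depended on LPS was tested with an interaction term over all 12 libraries. SERPINB2 and PLAT passed, both with a KD difference that was higher with LPS, and 1.28% of the 17173 genes tested passed, 0.943% in that direction. For SERPINB2 the interaction was 1.79 on the log2 scale (SE 0.199, edgeR adjusted p = 0.00015), the 7th smallest p of all genes, and it held with any 1 library left out. For PLAT it was 0.88 (SE 0.193, edgeR adjusted p = 0.030), and the call was lost in 7 of 12 fits with 1 library left out. Those were the fits without scramble control replicate 1 (adjusted p = 0.065) or 2 (0.11), scramble control with LPS replicate 1 (0.069), KD replicate 1 (0.086) or 2 (0.065), or KD with LPS replicate 2 (0.079) or 3 (0.098). The F3 interaction was 0.52 (SE 0.129, edgeR adjusted p = 0.060). It passed with DESeq2 (adjusted p = 0.0072), with genes of at least 1 count kept (0.015), with a replicate block (0.045) and without scramble control replicate 1 (0.015). For the other 6 members the adjusted p lay between 0.17 and 0.94, with estimates from 0.079 for TFPI to 0.63 for SERPINE2. The median estimate was 0.55 over the members and 0.0096 over all genes.

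**Figure D3:**
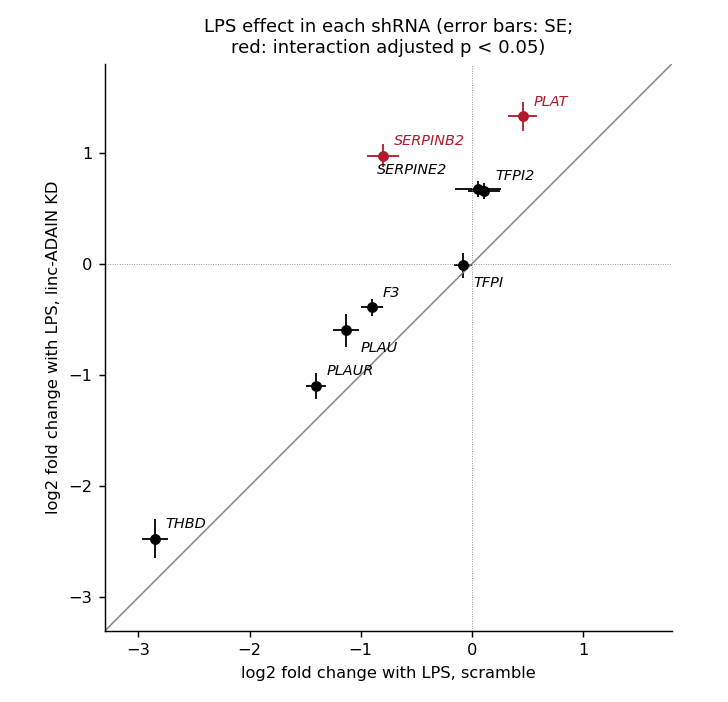
The log2 fold change with LPS in scramble control (x axis) against that in linc-ADAIN KD (y axis) for the 9 genes, with SE bars and the line of equal effect. SERPINB2 and PLAT, in red, passed the interaction test, and SERPINB2 alone lies in the upper left quadrant beyond its error bars, at -0.80 and 0.97.

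Ratios between pairs of members, each taken within a library on levels per kilobase, describe the same shifts without dependence on the scaling. They are given without a test because the genes in them are those already compared. PLAT over PLAU was 0.0659 to 0.0929 in scramble control, 0.226 to 0.262 with LPS, 0.643 to 0.756 in KD and 1.69 to 3.65 in KD with LPS. Urokinase mRNA was thus the more abundant activator mRNA in every library of 3 groups, and tissue-type activator mRNA in every library of the KD group with LPS. With the median length of coding transcripts in place of the canonical one, the KD libraries without LPS spanned 0.867 to 1.02, so their side of 1 depended on the length used. PLAU over its receptor PLAUR was 0.923 to 1.20 in scramble control, 1.10 to 1.43 with LPS, 0.136 to 0.186 in KD and 0.162 to 0.303 in KD with LPS. With the median coding length the scramble groups were at 0.500 to 0.649 and 0.597 to 0.773, so their side of 1 also depended on the length, while both KD groups stayed under both scramble groups.

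TFPI2 over TFPI rose from 9.31 to 13.4 in scramble control to 28.1 to 33.3 in KD and 38.3 to 55.3 in KD with LPS, with 11.7 to 13.1 in control with LPS. F3 over its inhibitor TFPI was 3.43 to 4.78 in scramble control, 2.08 to 2.49 with LPS, 4.31 to 6.51 in KD and 3.43 to 4.49 in KD with LPS. This ratio was lowest in control with LPS, and the other groups overlapped in part. The size of both ratios depended on the length used: with the median coding length, scramble control was at 5.24 to 7.57 for TFPI2 over TFPI. F3 over TFPI was then 0.751 to 1.05 in scramble control, 0.457 to 0.546 with LPS, 0.944 to 1.43 in KD and 0.751 to 0.984 in KD with LPS, so which of the pair was the more abundant is not settled.

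**Figure D4:**
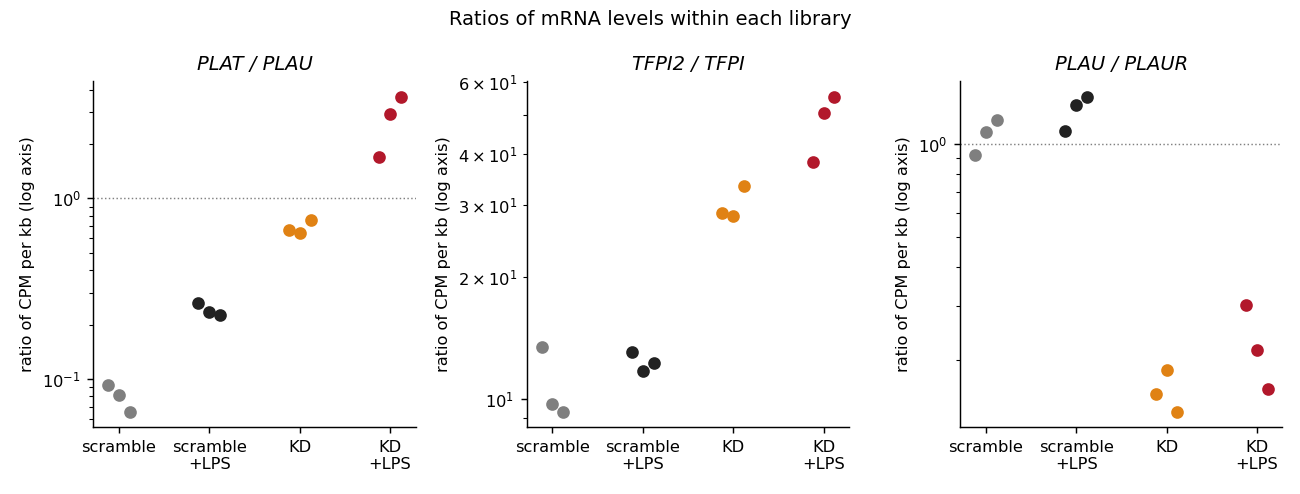
Ratios of CPM per kb within each library (log axes) for PLAT over PLAU, TFPI2 over TFPI and PLAU over PLAUR, 1 point per library and no error bars. Dotted lines mark equal levels. The libraries of KD with LPS lie highest in the first panels, at 1.69 to 3.65 and 38.3 to 55.3, and in the last both KD groups lie under the scramble groups, at most at 0.303.

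A wider list of 43 other genes of plasminogen activation and coagulation was examined, from clotting factors to thrombin receptors. Without LPS, 16 of the 30 that could be tested were lower in KD and 0 were higher by edgeR, beside 15.1% and 12.1% of all genes. At an unadjusted p under 0.05 there were also 0 higher, and DESeq2 called 18 lower and 0 higher. With LPS, 15 of 29 were lower and 1, F8 (coagulation factor VIII), was higher, beside 14.2% and 12.7% of all genes. F8 was at 10.5 CPM in KD with LPS against 6.98 (log2 0.59, SE 0.168, edgeR adjusted p = 0.018) and is named because of that count, after its value was seen. The median log2 difference of the list was -0.66 in both KD comparisons, beside 0.024 and 0.025 over all genes. Among the members as many were higher as lower without LPS. Both lists were chosen with earlier results of these data known, so the contrast between them may reflect that choice.

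Genes of plasminogen binding and control were among those lower in KD. S100A10, which with annexin A2 forms a plasminogen receptor, was at 380 and 158 CPM without LPS and at 393 and 139 with it in control and KD (log2 -1.26 and -1.50). VTN, which encodes the adhesive glycoprotein vitronectin, was at 2.51 and 0.275 CPM without LPS (log2 -3.15, edgeR adjusted p = 0.0011).

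Of the 4 genes of thrombin receptors and their relative F2RL1, 3 were lower in KD without LPS (F2R, F2RL1 and F2RL2). With LPS 2 were lower (F2R and F2RL2). Over all genes 15.1% and 14.2% were lower in the same comparisons. F2R was at 63.7 CPM in scramble control, 31.5 with LPS, 17.9 in KD and 13.4 in KD with LPS. F2RL2 was at 15.2, 16.7, 1.19 and 1.47 CPM in the same order, with log2 KD differences of -3.69 and -3.53. F2RL1, a receptor for trypsin-like proteases, was at 8.90 CPM in scramble control and at 1.19 with LPS (log2 -2.88, edgeR adjusted p = 3.9e-05), and at 2.13 in KD (log2 -2.06, edgeR adjusted p = 3.4e-05). With LPS its level was low in both arms, at 0.738 CPM in KD, and its KD difference was -0.69 (edgeR adjusted p = 0.45). The F2RL1 interaction was not called (1.35, edgeR adjusted p = 0.30), so a KD difference that depends on LPS is not shown. VWF, which carries factor VIII and also stands in the endothelial marker list, was at 9.66, 4.70, 2.21 and 0.698 CPM. F10, coagulation factor X, was counted 51 to 70 times in each control library and 0 to 5 times in each KD library (log2 -4.14, edgeR adjusted p = 0.0025). After LPS its counts were 38 to 47 in control and 9 to 15 in KD (edgeR adjusted p = 0.048), a call lost in 10 of the 13 alternatives, among them all 6 fits with 1 library left out.

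LPS lowered 6 of 31 of these genes in scramble control and 3 of 27 in KD by edgeR, and raised 0 in both, beside 8.38% and 6.03% of all genes lowered. The share in KD was 11.1% called in either direction, near the 11.3% of all genes. At an unadjusted p under 0.05 it raised 2 and 1, and DESeq2 called 0 higher in either arm. The list's median log2 difference with LPS was 0.052 in control, opposite in sign to its called genes, and -0.13 in KD, beside 0.020 and 0.0099 over all genes. The VWF call in KD (edgeR adjusted p = 0.033) was lost without KD replicate 1 (adjusted p = 0.095) or 2 (0.11), or KD with LPS replicate 1 (0.083) or 2 (0.11). Also lowered in KD was ENO1, at 911 CPM with LPS against 1107 without and named after its value was seen. SERPIND1, heparin cofactor II, fell by 1.22 on the log2 scale in control (edgeR adjusted p = 0.021), a call lost without scramble control replicate 1 (adjusted p = 0.0502) or 2 (0.14), without scramble control with LPS replicate 3 (0.071) and in the fit of all 12 libraries (0.12). No gene of this list passed the interaction test by edgeR, where 5 of 32 had an unadjusted p under 0.05, and DESeq2 called 2. The median interaction of the list was 0.061.

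The genes whose levels ran most like those of the 3 widest-ranging members were sought among 12020 genes at a mean of at least 1 CPM, by Pearson's r over log2 CPM in the 12 libraries. For THBD they were SERTAD2, PFKP and WDR43 (r = 0.99 for each). SERTAD2 followed the order of THBD over a narrower range, at 68.7 CPM in scramble control, 44.5 with LPS, 54.6 in KD and 35.1 in KD with LPS. For PLAU they were DNAJA2, TSC22D2 and RHOB (r = 0.99, 0.99 and 0.98), with RHOB at 234, 156, 106 and 71.3 CPM in the same order. For SERPINB2 they were ETS1, SMAD2 and EVA1A (r = 0.97 for each), with ETS1 at 194, 134, 276 and 342 CPM. The 12 points share 4 groups and the same libraries, and these values are a description only.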

How the data were processed

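RNA-seq libraries (12; 3 in each of 4 groups) were prepared with a stranded mRNA kit. Per the submitters' processing notes and methods, the authors used bcl2fastq 2.19, kallisto 0.44.0 against GRCh38 and DESeq2 1.32.0, and deposited estimated counts per gene name without normalization for depth or length. The values were whole numbers and were used as such. Pseudoalignment can divide reads between similar or overlapping genes. The annotation release was not given in the sources used here. A row without a gene name (0.235% to 0.306% of a library) was left out.

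Groups were taken from the labels. Counts were tested with edgeR 4.0.16 (quasi-likelihood F test, TMM scaling, at least 10 counts in total, R 4.3.3) on all genes, with Benjamini-Hochberg adjustment over all of them. Each pairwise comparison used its own 6 libraries and the interaction all 12. A call is an adjusted p under 0.05. SE was derived from the F statistic. DESeq2 1.42.0, other scalings, filters, a replicate block and leave-one-out fits were alternatives. The code was tested on simulated data. Lengths and coordinates came from GENCODE 44 (Ensembl canonical transcripts) and promoters from RefSeq on GRCh38.p14.

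The 9 members and the lists were chosen with earlier results of these data known. Other pathway genes were named where they passed and differed at least 2-fold in a group comparison, or passed the interaction, given a mean of at least 50 counts in one group. The counts of the list include 1 gene whose values are not reported here. The precision of a value rests on 28381782 to 53837400 counts per library and 3 libraries per group.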

Additional observations from a re-analysis of the deposited data

Results flagged for a closer look

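The difference between KD and scramble control depended on whether LPS had been given for 2 of the 9 genes, by the interaction test. For SERPINB2 the KD difference was 1.79 higher on the log2 scale with LPS than without (edgeR adjusted p = 0.00015), and LPS moved all 3 KD libraries and all 3 control libraries to opposite sides of their untreated groups. For PLAT it was 0.88 higher (edgeR adjusted p = 0.030), with LPS levels above the untreated ones in both arms. The PLAT call depended on single libraries, with an adjusted p as high as 0.11 when scramble control replicate 2 was left out. Groups of 3 were too small to look for outlying libraries.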

How the results depend on the processing

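Of 45 results on the 9 genes (each gene in 4 comparisons and the interaction), 34 kept direction and call in every alternative, and 3 without a call turned sign when 1 library was left out: SERPINE2 with LPS in control (-0.19 to 0.33), TFPI with LPS in KD (-0.14 to 0.075) and the TFPI interaction (-0.058 to 0.16). Leaving out 1 library gave 7 to 9 called members in KD without LPS, 8 with LPS, 5 to 6 with LPS in control, 7 to 8 with LPS in KD and 1 to 2 for the interaction. For the other pathway genes the interaction count then ranged from 0 to 1. Keeping genes with at least 1 count raised the interaction counts to 4 members (with F3, adjusted p = 0.015, and TFPI2, 0.032) and 2 other pathway genes, and DESeq2 called 2 of the latter. Over all genes these settings called 431 and 475 in the interaction, against 219. The other pathway genes called with LPS in KD numbered 5 with the replicate block and 6 with a fit of all 12 libraries, against 3, and 2 to 3 with 1 library left out. Library size alone moved the median of all genes to 0.13 (KD without LPS) and 0.11 (KD with LPS), left PLAT uncalled with LPS in control (adjusted p = 0.059, giving 0 higher and 5 lower), and cost or gave the F3 calls named above. In no comparison was the correlation of same-numbered libraries' deviations over 0.1 in all 3 pairs, and r ran from -0.10 to 0.23. It was positive in all 3 pairs for LPS in control (0.23, 0.074 and 0.052) and for KD with LPS. The main fits did not take the numbers as pairs, but these values cannot exclude pairing. The block moved the calls over all genes from 2274 to 3260 for LPS in control and from 4411 to 3857 for KD without LPS. With the replicate block the members called numbered 8, 8, 6 and 8 in the 4 comparisons and 3 in the interaction, F3 being added (adjusted p = 0.045). SERPIND1 in KD with LPS, 0.010 in the main comparison, was -0.20 with the block and -0.47 to 0.44 with 1 library left out. Other uncalled low-count genes turned sign with 1 library left out: VTN (-0.16 to 0.21) and F10 (-0.18 to 0.13) with LPS in control, VTN (-1.04 to 0.040) and F2RL2 (-0.036 to 0.94) with LPS in KD, and the F2RL2 interaction (-0.21 to 0.80). The cause of these changes was not tested. Genes under about 1 CPM had too few counts for a small difference to be detectable.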
